A study of Mus musculus with 2 samples.

Results

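The 7 globin genes Hbb-y, Hbb-bh1, Hbb-bt, Hbb-bs, Hba-x, Hba-a1 and Hba-a2 were followed cell by cell in whole mouse hearts at E11.5, in mid-gestation. The genes were fixed by name, and all 7 of 7 had a row among the 22401 features of both matrices. Droplet single-cell libraries counted unique molecular identifiers (UMIs), 1 for each captured transcript, from the 3′ end. The study has 2 libraries, 1 per genotype: a control of genotype Hand2fx/+R26RmTmG/wt, which carries 1 conditional Hand2 allele and no Cre, and the library H2CKO of genotype Nfatc1Cre/wtHand2fx/fxR26RmTmG/wt, which carries both conditional alleles and a Cre driven by Nfatc1. Both carry the R26RmTmG reporter, and Nfatc1 is a gene of the endocardium, the inner lining of the heart. The number of embryos pooled per library is not stated in the labels used here. With 1 library per genotype there is no replicate check of any difference between them, no test was possible, and all intervals cover counting error or the number of cells only.

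Haemoglobin is a tetramer of α-like and β-like chains, and each family is encoded by a gene cluster whose members are used in turn during development. In the mouse embryo the first red cells arise in the yolk sac, circulate with their nuclei and use the embryonic genes Hbb-y, Hbb-bh1 and Hba-x. As these primitive cells mature they shift from Hbb-bh1 to Hbb-y and from Hba-x to Hba-a1 and Hba-a2, while definitive red cells, made later in the liver, use the adult genes Hbb-bt and Hbb-bs with Hba-a1 and Hba-a2. Blood fills the heart at this stage, so a dissociated heart holds many circulating red cells, and red cells that burst release globin RNA into the suspension.

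The β-like genes lie on the minus strand of chromosome 7 and the α-like genes on the plus strand of chromosome 11 (GRCm38). Each is annotated as protein-coding, and the first listed transcript of each has 3 exons. Hbb-y spans chr7:103851749-103853216, Hbb-bh1 chr7:103841637-103843164, Hbb-bs chr7:103826534-103828096 and Hbb-bt chr7:103812524-103813996. Hba-x spans chr11:32276400-32278116, Hba-a1 chr11:32283511-32284465 and Hba-a2 chr11:32296489-32297298. Promoter entries from RefSeq (GRCm38.p6) matched 6 of the 7 genes; Hbb-bh1 had none. The RefSeq starts lie inside these gene spans, which come from another annotation, so the windows before them overlap the spans, wholly for Hbb-bs, Hba-x and Hba-a1 and in part for Hbb-y and Hbb-bt. The 150 bases before the RefSeq start are printed 5′ to 3′ for the genes whose shares differed most from cell to cell or between the libraries. Capitals mark matches, on either strand, to CACCC (a motif bound by KLF factors such as Klf1), CCAAT, GATA (bound by Gata1) and TATAA.
Hbb-y (chr7:103853208-103853357, minus strand): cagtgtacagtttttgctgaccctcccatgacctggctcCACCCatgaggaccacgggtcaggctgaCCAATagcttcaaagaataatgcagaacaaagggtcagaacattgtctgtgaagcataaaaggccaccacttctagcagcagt
Hbb-bt (chr7:103813924-103814073, minus strand): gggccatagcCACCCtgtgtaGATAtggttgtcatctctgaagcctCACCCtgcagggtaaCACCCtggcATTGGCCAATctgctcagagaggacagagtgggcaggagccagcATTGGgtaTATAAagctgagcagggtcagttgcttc
Hbb-bs (chr7:103827929-103828078, minus strand): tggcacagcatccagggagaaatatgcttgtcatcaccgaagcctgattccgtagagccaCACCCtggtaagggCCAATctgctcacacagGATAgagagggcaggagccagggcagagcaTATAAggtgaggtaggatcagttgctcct
Hba-x (chr11:32276450-32276599, plus strand): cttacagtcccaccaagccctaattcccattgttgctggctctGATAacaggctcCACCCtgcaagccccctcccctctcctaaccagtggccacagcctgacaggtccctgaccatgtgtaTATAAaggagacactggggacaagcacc
Hba-a1 (chr11:32283522-32283671, plus strand): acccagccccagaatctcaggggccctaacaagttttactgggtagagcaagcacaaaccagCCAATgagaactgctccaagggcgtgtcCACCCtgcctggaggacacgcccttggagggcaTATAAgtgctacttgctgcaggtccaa

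CACCC occurred in all 5 printed windows, once in each except Hbb-bt, where it occurred 3 times. Of 32851 RefSeq windows of this length, 37.4% held CACCC, 24.5% CCAAT, 35.7% GATA and 14.2% TATAA. Hbb-bt held 3 matches to CCAAT, Hbb-bs 1 and Hba-x none. A match to GATA was found in Hbb-bt, Hbb-bs and Hba-x. The windows of Hbb-bt and Hbb-bs were identical at 109 of 148 aligned bases (73.6%). Those of Hba-a1 and Hba-a2 were identical at all 147 aligned bases, so the Hba-a2 window is not printed. These matches describe letters only.

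Transcript similarity bears on how well the counts separate the genes. The first listed transcripts of Hba-a1 and Hba-a2 were identical at 537 of 538 aligned bases (99.8%), those of Hbb-bt and Hbb-bs at 580 of 626 (92.7%), and those of Hbb-y and Hbb-bh1 at 450 of 611 (73.6%). Transcript reads were 91 bases long, per the labels' protocols. In the last 300 bases, where 3′ reads fall, 56.7% of the 91-base windows of Hba-a1 occurred unchanged in Hba-a2 and 49.05% the other way. For Hbb-bt against Hbb-bs the shares were 23.8% and 24.3%, and for Hbb-y against Hbb-bh1 both were 0. The split between Hba-a1 and Hba-a2 is therefore uncertain, that between Hbb-bt and Hbb-bs less so, and that between Hbb-y and Hbb-bh1 rests on reads that differ.

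Globin-rich cells were defined as barcodes with at least 50% globin UMIs and at most 10% mitochondrial UMIs. There were 2737 among 14114 control barcodes (19.4%) and 5237 among 13885 H2CKO barcodes (37.7%). The libraries shared 57 barcode sequences, 3 of them globin-rich in both. Total UMIs were 195825720 and 201477256, of which 19.7% and 26.8% were globin. Median depth in globin-rich cells was 18481 UMIs and 1825 genes in the control and 13162 UMIs and 1231 genes in H2CKO, so the control cells were deeper. None of them was among the 5408 and 6232 barcodes of the authors' deposited embedding. The doublet caller Scrublet marked 61 control and 122 H2CKO globin-rich cells (2.23% and 2.33%). It found no threshold in H2CKO, where the 5% of barcodes with the highest scores were taken instead. In the control its automatic threshold marked 10.6% of scored barcodes, so marked counts of the 2 libraries are not directly comparable.

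Few barcodes lay near the threshold. At 50 to 55% globin there were 59 control and 32 H2CKO cells, with median Hbb-y shares of β-like UMIs of 85.8% and 88.97%. At 45 to 50%, within the same mitochondrial limit, there were 34 and 38 barcodes, with medians of 86.7% and 90.3%. The identity of the globin-rich cells was checked against non-globin erythroid markers, of which 13 of 14 had a row. These 13 summed to 9961 CPM (counts scaled to 1000000 non-globin UMIs) in the control and 9169 in H2CKO. Alas2, the first enzyme of haem synthesis in red cells, had 1558.5 and 1672 CPM. Markers of megakaryocytes and platelets summed to 115.7 and 97.5 CPM, of mesenchymal cells to 97.4 and 54.99 CPM, of epicardial cells to 25.2 and 16.6 CPM, of endothelial cells to 17.05 and 22.9 CPM, of white blood cells to 3.81 and 8.06 CPM and of liver to 0.673 and 0.855 CPM. Cardiomyocyte markers summed to 3695 and 4069 CPM in the same cells.

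Hbb-y was the most abundant globin in nearly every globin-rich cell, and it took a larger part of the β-like RNA in H2CKO. The 3′ assay counts a transcript once whatever its length, so UMIs of different globins are not divided by length, but the part of the reads that can be assigned to 1 gene differs between the globins, as given above. Hbb-y led in 2736 of 2737 control cells and in all 5237 H2CKO cells. The median control cell held 6352 Hbb-y UMIs and the median H2CKO cell 5243. As a share of β-like UMIs the median was 85.5% in the control (95% interval of the median 85.4 to 85.7, middle 90% of cells 81.1 to 89.5) and 90.3% in H2CKO (90.2 to 90.4, middle 90% of cells 86.0 to 93.7). The difference was 4.76 percentage points. The distributions overlapped at their edges: 2.59% of control cells lay above the H2CKO median and 96.3% of H2CKO cells above the control median.

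Hbb-bh1, the other embryonic β-like gene, made up most of that gap. Its median share of β-like UMIs was 8.96% in the control (8.84 to 9.10) and 5.24% in H2CKO (5.16 to 5.29), a difference of −3.73 percentage points. The median cell held 673 and 303 Hbb-bh1 UMIs, and each globin-rich cell held at least 20 in the control and 11 in H2CKO. In no cell did Hbb-bh1 exceed Hbb-y, which allows a share of such cells of up to 0.11% of the control and 0.0573% of H2CKO. Scaled to 1000000 total UMIs of globin-rich cells, Hbb-bh1 stood at 37173 in the control and 23264 in H2CKO, a ratio of 0.626 (0.625 to 0.627). The same ratio for Hbb-y was 1.16.

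The embryonic pair varied among cells of 1 library far beyond counting error. Hbb-y as a share of Hbb-y plus Hbb-bh1 had a standard deviation over cells of 2.90 percentage points in the control and 1.73 in H2CKO, against 0.381 and 0.339 from binomial counting alone. Among control cells with at least 5000 globin UMIs and 100 UMIs of Hbb-bt plus Hbb-bs, the lowest held 1842 Hbb-bh1 and 6502 Hbb-y UMIs (77.9% Hbb-y), the median cell 964 and 9107, and the highest 119 and 10147 (98.8%). The corresponding H2CKO cells held 629 and 4913 UMIs (88.7%), 387 and 6869, and 49 and 5741 (99.2%). The lowest cell of each library detected the most genes of its 3 (3019 and 1646) and the highest the fewest (1578 and 786).

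Adult β-like UMIs were a minority of β-like UMIs in each globin-rich cell. The median globin-rich cell held 315 Hbb-bt UMIs in the control and 130 in H2CKO, where the median of the other cells was 2 in both. It held 48 and 83 Hbb-bs UMIs, where the median of the other cells was 1 in both. At the low end, 5% of globin-rich cells had no more than 2 Hbb-bs UMIs in the control, close to that background. In H2CKO 5% had no more than 7. Hbb-bt plus Hbb-bs made up a median of 5.39% of β-like UMIs in the control (5.27 to 5.48) and 4.26% in H2CKO (4.19 to 4.33). The highest cell reached 16.3% in the control and 23.6% in H2CKO. No globin-rich cell had a majority of adult β-like UMIs, and at least 10% was reached by 73 control cells (2.67%) and 159 H2CKO cells (3.04%). Hbb-bh1 exceeded the adult pair in 80.8% of control cells (79.3 to 82.3, exact binomial interval) and in 60.7% of H2CKO cells (59.3 to 62.0). Genes listed as marking definitive red cells were near 0: Bcl11a, a repressor of embryonic globin genes, had 2.24 and 1.85 CPM, Sox6, its partner in that silencing, 3.08 and 2.39 CPM, and Car1 no UMI in either library.

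The 2 adult β-like genes moved in opposite directions between the libraries. On the scale of 1000000 total UMIs, Hbb-bt stood at 17404 in control globin-rich cells and 11003 in H2CKO, a ratio of 0.632 (0.630 to 0.634). Hbb-bs had 4359 and 9400, a ratio of 2.16 (2.15 to 2.17), and was the only 1 of the 7 globin genes past 2-fold. As the median share of β-like UMIs, Hbb-bt was 4.41% and 2.38%, and Hbb-bs 0.662% and 1.54%. Among non-globin genes measured on their own scale, 0.441% of 4304 were past 2-fold higher in H2CKO and 8.71% past 2-fold lower. The part of read assignment between the 2 similar transcripts in this difference was not tested.

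Within the adult β-like pair, the counted share of each gene varied widely among cells of the same library. The labels used here give neither the strain nor the number of embryos, so variation between cells, between embryos of a pool and between strains cannot be told apart for this split. Over cells with at least 50 UMIs of the pair, Hbb-bt made up a median of 86.3% in the control (2712 cells) and 58.9% in H2CKO (4939 cells). The standard deviation over cells was 18.4 percentage points in the control, against 2.28 from counting, and 23.7 in H2CKO, against 3.59. In the control, 687 of 2712 cells (25.3%) had at least 95% Hbb-bt, 793 (29.2%) had 25 to 75% and 2 had at most 5%. In H2CKO, 112 of 4939 cells (2.27%) had at least 95%, 2978 (60.3%) had 25 to 75% and 51 (1.03%) at most 5%. Hbb-bs exceeded Hbb-bt in 204 control cells (7.52%) and in 1873 H2CKO cells (37.9%).

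In single cells the counts reached nearly all of 1 gene or of the other. Ranked among cells with at least 5000 globin UMIs and 100 of the pair, the control cell with the highest Hbb-bt part held 556 Hbb-bt UMIs and no Hbb-bs UMI, and the one with the lowest held 8 Hbb-bt and 156 Hbb-bs UMIs. In H2CKO the extremes were 123 Hbb-bt with no Hbb-bs UMI, and 2 Hbb-bt with 439 Hbb-bs. Over all cells the split was nearly unrelated to the embryonic pair, with a Spearman correlation of 0.00517 in the control (2736 cells) and −0.0359 in H2CKO (5237 cells). Median Hbb-bt parts at the highest and lowest Hbb-y ends, compared below, were 84.8% and 86.5% (control) and 56.5% and 62.8% (H2CKO). The Hbb-bt and Hbb-bs shares of β-like UMIs themselves correlated at −0.0655 and 0.156, so cells rich in one gene were not in general rich in the other.

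The adult α-like pair behaved otherwise. Hba-a1 made up a median of 63.5% of Hba-a1 plus Hba-a2 in the control (63.4 to 63.7) and 67.1% in H2CKO (66.96 to 67.1). The standard deviation over cells was 2.82 and 2.84 percentage points, where counting alone gives 1.40 and 1.52. Hba-a1 exceeded Hba-a2 in all 2737 control cells and in 5236 of 5237 H2CKO cells. The variance over cells was 4.70 and 4.42 times the binomial value for this pair, and 85.05 and 59.8 times for Hbb-bt against Hbb-bs. The adult α-like pair also shares more of its read windows, as given above, and the part of this in its narrow spread was not tested.

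**Figure D1:**
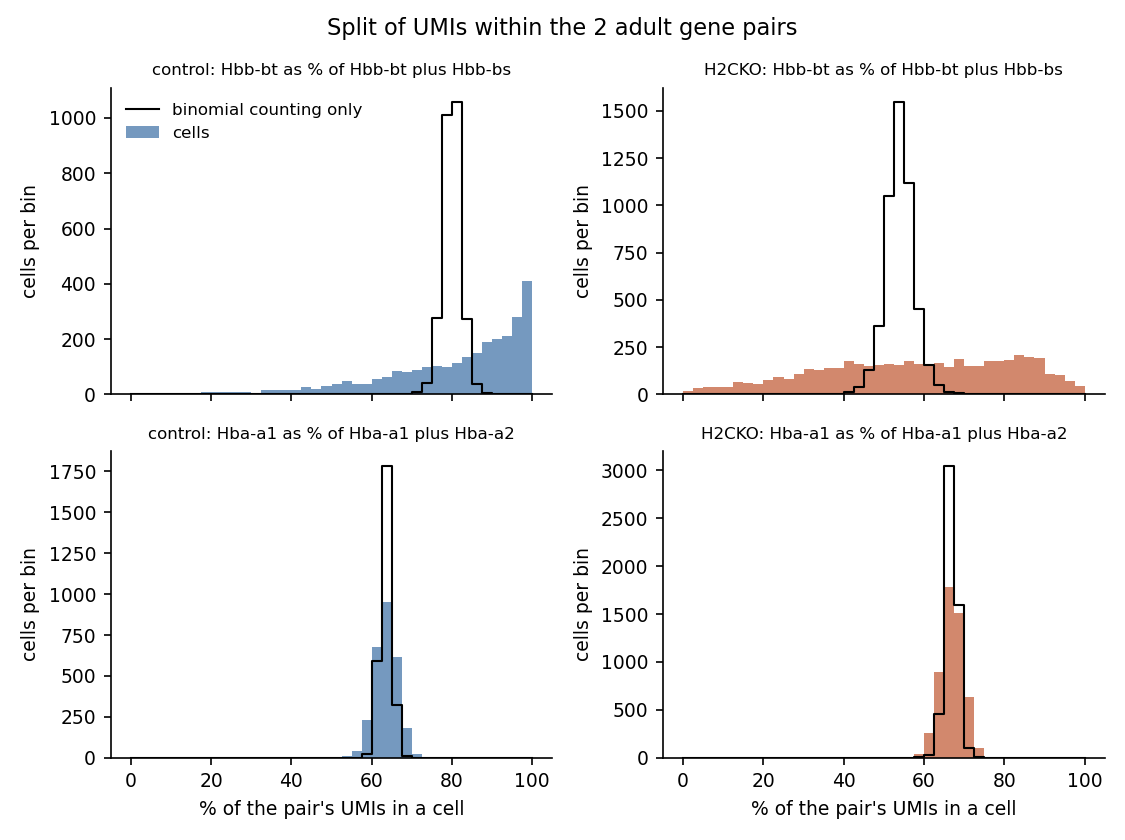
Histograms of globin-rich cells by the share of Hbb-bt in Hbb-bt plus Hbb-bs (top, cells with at least 50 UMIs of the pair) and of Hba-a1 in Hba-a1 plus Hba-a2 (bottom), in bins of 2.5 percentage points, for the control (left) and H2CKO (right). The black line is the number of cells expected from binomial counting around the library's pooled share; the adult β-like split spreads over most of the axis, with a standard deviation of 18.4 and 23.7 points, and the adult α-like split over 2.82 and 2.84 points.

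Hba-x, the embryonic α-like gene, was the main α-like transcript, with a smaller part in H2CKO. The median cell held 3364 Hba-x UMIs in the control and 2001 in H2CKO. Its median share of α-like UMIs was 70.2% in the control (69.9 to 70.4, middle 90% of cells 61.7 to 75.3) and 62.6% in H2CKO (62.4 to 62.7, middle 90% of cells 52.2 to 69.0), a difference of −7.61 percentage points. Only 2.60% of H2CKO cells lay above the control median. Hba-x exceeded the adult α-like genes together in 2732 of 2737 control cells (99.8%) and in 5087 of 5237 H2CKO cells (97.1%). Hba-a1 had 905 and 819 UMIs in the median cell and Hba-a2 522 and 405. On the scale of total UMIs, the ratio of H2CKO to control was 0.846 for Hba-x, 1.27 for Hba-a1 and 1.09 for Hba-a2.

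The order of the 7 genes by median share of a cell's globin UMIs was Hbb-y, Hba-x, Hba-a1, Hbb-bh1, Hba-a2, Hbb-bt, Hbb-bs in the control. In H2CKO Hba-a2 stood above Hbb-bh1, at 4.38% (4.34 to 4.40) against 3.37% (3.34 to 3.40), and the other places were the same. No neighbouring intervals of these medians overlapped in either library. The 5th to 95th percentiles over cells of neighbours did overlap from Hba-a1 downwards in the control and from Hba-a2 downwards in H2CKO, so single cells varied in that part of the order. All α-like UMIs made up 38.8% of globin UMIs in the median control cell (38.7 to 38.9) and 35.6% in the median H2CKO cell (35.5 to 35.7). β-like UMIs exceeded α-like UMIs in 2735 of 2737 control cells and in all 5237 H2CKO cells.

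**Figure D2:**
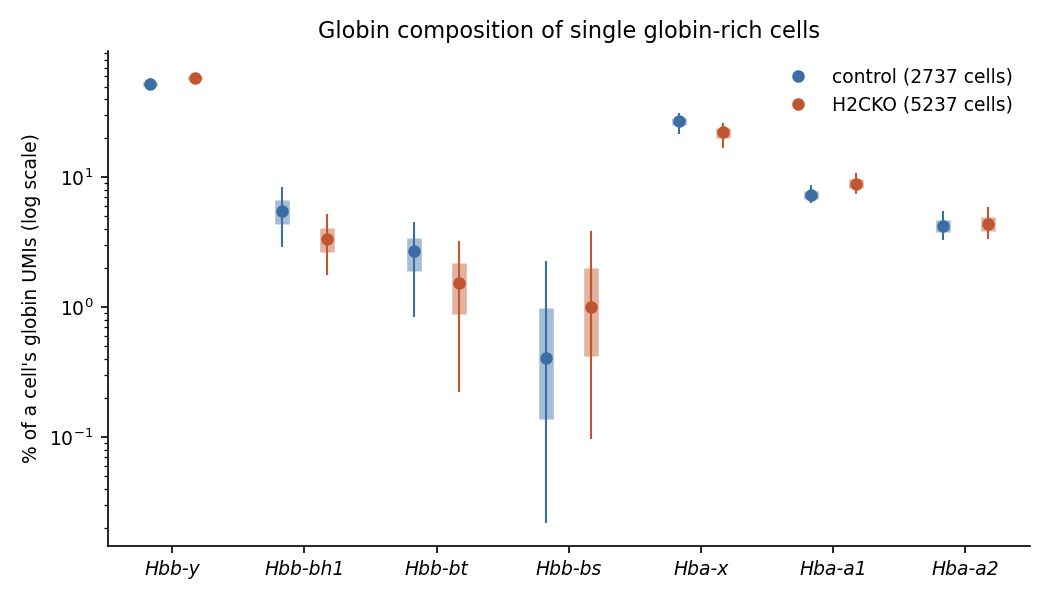
Share of each of the 7 globin genes in a cell's globin UMIs (log axis) in globin-rich cells of the control (2737 cells) and H2CKO (5237 cells); points are medians, thick bars the middle 50% of cells and thin lines the 5th to 95th percentiles. Hbb-y and Hba-x lie above the rest in both libraries, and on this axis Hbb-bs has the longest line, from 0.0217% to 2.26% in the control and 0.0965% to 3.89% in H2CKO.

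Hbb-bh1 and Hba-x, embryonic genes of clusters on different chromosomes, went together from cell to cell. The Hbb-bh1 share of β-like UMIs and the Hba-x share of α-like UMIs had a Spearman correlation of 0.531 over the 2737 control cells and 0.495 over the 5237 H2CKO cells. The adult β-like share correlated with the Hba-x share at −0.411 and −0.333, and with the Hbb-y part of the embryonic pair at 0.455 and 0.386. The points of each correlation are cells of 1 library and share its free RNA, and both shares also followed depth. The Hba-x share correlated with genes detected at 0.438 and 0.415 and with the globin share of the cell at −0.444 and −0.600. Cells that gave more of their UMIs to globin thus tended to have a lower Hba-x share of α-like UMIs. The same held, at −0.425 and −0.527, for the Hbb-bh1 share of β-like UMIs.

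Grouped by genes detected, the Hba-x and Hbb-bh1 shares were higher in cells with more genes in both libraries, apart from the H2CKO cells with the fewest genes, while the Hbb-y share was lower in such cells of the control and level in H2CKO. In the control the median Hbb-y share of β-like UMIs was 87.3% in the 112 cells with 500 to under 1000 genes, 85.7% in the 1639 cells with 1000 to under 2000, 85.1% in the 925 cells with 2000 to under 3000 and 84.1% in the 52 cells with 3000 to under 4000. The end bins differed by 3.21 percentage points (2.45 to 4.10). In H2CKO the medians were 90.1% in the 147 cells under 500 genes, 90.2% in 1450 cells, 90.3% in 3486 cells and 90.2% in the 153 cells with 2000 to under 3000 genes, a difference between end bins of −0.0674 (−0.559 to 0.500). The difference between the libraries in this gradient was not tested.

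Hbb-bh1 went from 6.20% to 11.1% of β-like UMIs over the control bins and, from the H2CKO bin that starts at 500 genes to that starting at 2000, from 4.43% to 6.05%. Hbb-bt plus Hbb-bs went the other way, from 6.26% to 4.53% in the control and from 5.07% to 3.55% in H2CKO. Hba-x went from 64.6% to 73.0% of α-like UMIs in the control and from 59.3% to 65.2% in H2CKO. The H2CKO cells under 500 genes lay off this course, with 5.57% Hbb-bh1 and 61.3% Hba-x at a median depth of 2672 UMIs. Genes detected depend on depth, which was 5902 UMIs in the first and 38461 in the last control bin. When each control cell of at least 2000 UMIs was thinned to 2000 UMIs before its genes were counted, only 2 bins were left. These were under 500 genes (2639 cells) and 500 or more (97 cells). They differed in Hbb-y by 0.401 percentage points (−1.04 to 1.53), an interval that holds 0. Without thinning, the difference between the ends of 5 groups of equal size was 1.48, and that between the end bins with cells from 30% globin 1.57. Scrublet marked 12 of the 52 control cells in the last bin and 3 of the 112 in the first. The cardiomyocyte markers summed to a mean of 81.4 UMIs per cell in the last and 14.6 in the first. Without the marked cells the difference was 2.32; the part of mixed barcodes was not tested further.

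**Figure D3:**
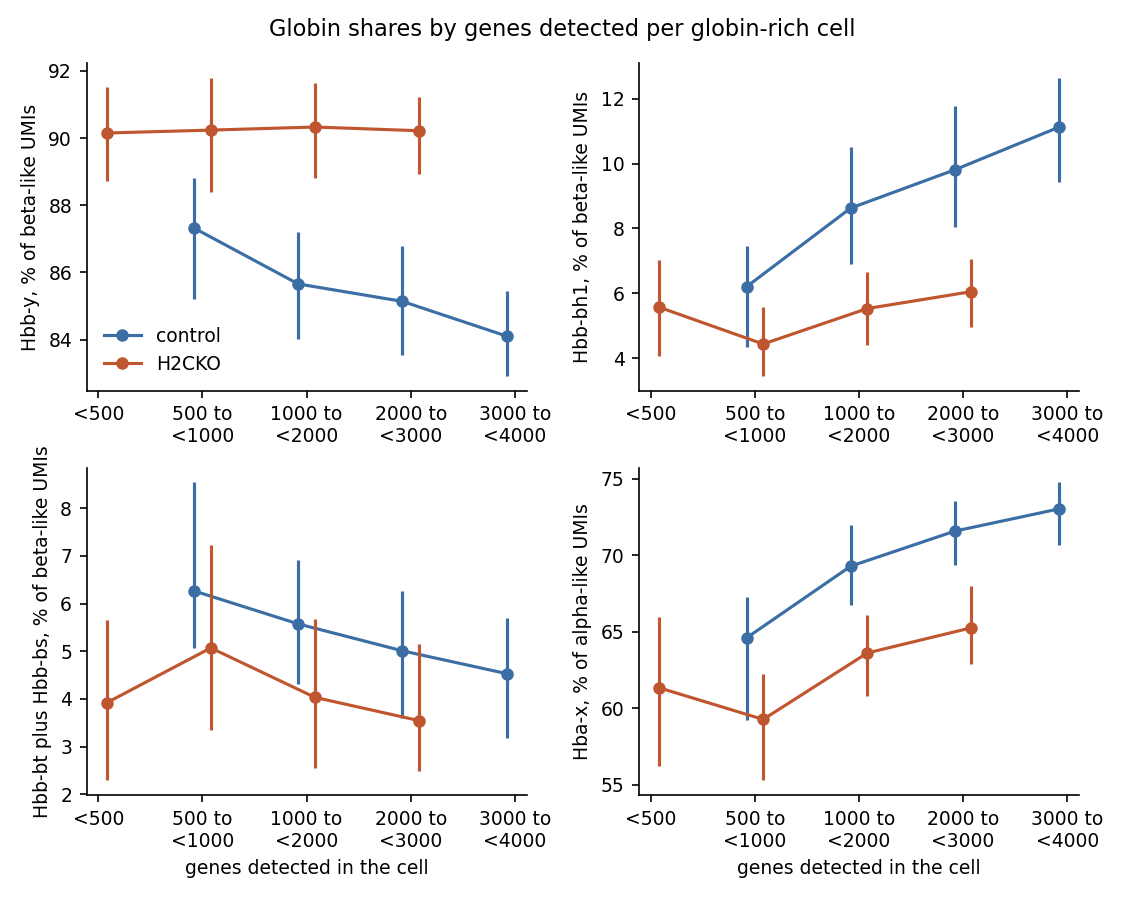
Median share, with the middle 50% of cells as a line, of Hbb-y, Hbb-bh1 and the adult pair among β-like UMIs and of Hba-x among α-like UMIs, by genes detected per globin-rich cell; bins under 20 cells are left out. Hbb-y declines from 87.3% to 84.1% over the control bins and stays between 90.1% and 90.3% over those of H2CKO.

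Non-globin genes of the globin-rich cells were compared between the libraries as log2 ratios of CPM plus 5. Of 4304 genes with at least 20 CPM and 20 UMIs in the higher library, 19 were past 2-fold higher and 375 past 2-fold lower in H2CKO, and the median ratio was −0.21. With ratios centred on that median gene, 30 were past 2-fold higher and 153 lower. Highest were Glrx (8.30 to 72.3 CPM, log2 ratio 2.54), a glutaredoxin, Rpl29 (1.90), a ribosomal protein, Cdk5rap1 (1.88), Tmem184a (1.79), Nppa (1.74), the atrial natriuretic peptide of cardiomyocytes, and Alad (1.55), the second enzyme of haem synthesis. Lowest were Gm10260 (613 to 1.49 CPM, −6.57), Eif3j2 (−3.01), Gm11361 (−2.75), BC004004 (−2.75), Cwc22 (−2.65) and Ttn (−2.21), the sarcomere protein titin. Nppa and Ttn are cardiomyocyte genes. The cardiomyocyte markers had 1 of 11 tested genes past 2-fold higher and 2 lower, with a median of 0.23, and the part of RNA from other cells in these ratios was not tested.

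Of 20 listed regulators of globin expression 13 passed the filter, none was past 2-fold higher and 1 was lower, with a median of −0.40. Over all tested genes the shares were 0.441% higher and 8.71% lower, so this count is near the background. Klf1, the factor that drives adult β-like globin, had 307 and 474 CPM (0.62). Klf3, which binds the same CACCC motif as a repressor, had 140.4 and 64.4 CPM (−1.07, and −0.86 centred on the median gene, short of 2-fold). Zfpm1, the Gata1 cofactor FOG1, had 288 and 144 CPM (−0.98), and Tal1 268 and 174 CPM (−0.61). Gata1 itself had 110.0 and 86.6 CPM (−0.33).

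Among 12 tested genes of haem supply and globin balance, 1 was past 2-fold higher and 1 lower, with a median of 0.22, as they were when centred. Alad stood at 778 and 2294 CPM (1.55), and Tfrc, the receptor that takes up iron-laden transferrin, at 438 and 100.6 CPM (−2.07). Of 7 tested genes of immature erythroid cells 3 were past 2-fold lower: Tfrc, Mki67, a protein of dividing cells (1619 to 443 CPM, −1.86), and Itgb1, an integrin (74.1 to 30.1 CPM, −1.17). Centred on the median gene Itgb1 stood at −0.96 and 2 of the 7 were past 2-fold lower. None of 11 tested late erythroid genes was past 2-fold, with a median of −0.11, and 1 was past 2-fold higher when centred. These counts stand beside the same 0.441% and 8.71% over all tested genes. Of the other genes of the globin loci, Hbq1b, a θ-like gene of the α cluster, had 269.6 and 220.5 CPM (−0.28), and Hbb-bh2 3.93 and 7.43 CPM, below the filter.

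To ask which genes went with the state of the embryonic β-like pair, cells of each library were ranked by Hbb-y as a share of Hbb-y plus Hbb-bh1, and the 547 highest and 547 lowest control cells, and the 1047 highest and 1047 lowest H2CKO cells, were compared. The median share was 94.0% against 86.6% in the control and 96.6% against 92.2% in H2CKO. The other globins, which the ranking did not use, differed too. Hba-x was 66.4% of α-like UMIs in the high and 72.8% in the low group of the control, and 58.6% and 65.2% in H2CKO. Hbb-bt plus Hbb-bs was 6.62% and 3.96% of β-like UMIs in the control and 5.85% and 2.98% in H2CKO. The split of the adult α-like pair was within 1 percentage point between the groups, at 63.2% and 63.5% in the control and 66.5% and 67.2% in H2CKO. Hbb-bt was 84.8% and 86.5% of the adult β-like pair in the high and low control groups, and 56.5% and 62.8% in those of H2CKO.

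Of 3600 non-globin genes tested in both libraries, 18 (0.5%) were past 2-fold lower and 6 (0.167%) past 2-fold higher in the high group of both. Singly, 62 genes were past 2-fold in the control and 45 in H2CKO, so the 24 made up part of each. The lowest by the mean of the 2 ratios was Mcm3, a subunit of the helicase that unwinds DNA for replication. It had 128.1 CPM in the low and 40.2 in the high group of the control (−1.56), and 95.7 and 22.5 CPM in H2CKO (−1.87). Mcm4 (−1.42 and −1.61), Mcm6 (−1.47 and −1.53) and Mcm5 (−1.41 and −1.19) belong to the same helicase. Dtl (−1.41 and −1.72) is part of a ubiquitin ligase acting in S phase, and Cdc6 (−1.27 and −1.35) loads the helicase.

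The other 12 genes past 2-fold lower in both, named here because they complete the set, were Cdt1, Zmynd19, Rfc3, Atic, Ppat, Mybbp1a, Ppan, Pcna, Ccne1, Srm, Lyar and Ftsj3. Cdt1, Rfc3, Pcna and Ccne1 act in DNA replication or its onset, and Atic and Ppat in purine synthesis. Pcna, which was also on the list of immature erythroid genes, had 417.5 and 196.8 CPM in the low and high control group (−1.07). In H2CKO it had 306 and 128 CPM (−1.23). Of the 7 tested genes of that list, Pcna was the only 1 with negative ratios in both libraries, and 2 had positive ratios in both. The medians of the 7 were 0.36 in the control and −0.06 in H2CKO. Among the 6 higher genes were Fam174b (24.6 to 107.5 CPM and 43.6 to 127.9 CPM; 1.93 and 1.45), Tcp11l2 (1.33 and 1.43), Ackr1, the erythroid chemokine receptor (1.42 and 1.09), Ube2c, a ubiquitin-conjugating enzyme of mitosis (1.25 and 1.02), and Pus10 (1.12 and 1.02). Over the 3600 genes the log2 ratios of the 2 libraries, which share no cells, had a Pearson correlation of 0.82; genes are not independent replicates.

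**Figure D4:**
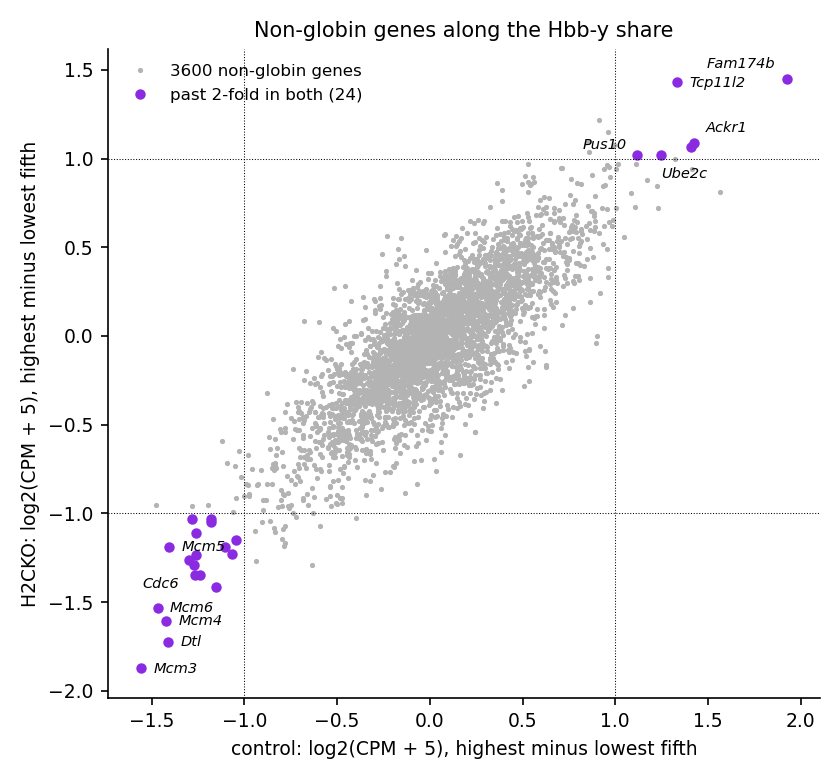
Each point is 1 of 3600 non-globin genes; the axes give the log2 ratio of CPM plus 5 between globin-rich cells of high and low Hbb-y share, in the control (x) and H2CKO (y). Dotted lines mark 2-fold; the 24 genes past it in both libraries lie at the lower left (18, Mcm3 lowest) and upper right (6, Fam174b highest).

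Depth moved with this ranking: the high group had fewer non-globin UMIs per cell than the low, at a median of 4506 against 7611 in the control and 3149 against 4730 in H2CKO. Cardiomyocyte markers, summed over the list, were near constant per cell, at a mean of 22.7 and 24.9 UMIs in the control and 17.4 and 16.7 in H2CKO. On the CPM scale they were higher in the high group (4626 against 3096, and 5041 against 3508), and 11 of 11 tested cardiomyocyte markers had positive ratios in both libraries, with medians of 0.51 and 0.51. The 11 tested late erythroid genes were also positive in both, with medians of 0.50 and 0.41, and none was past 2-fold in both. Xpo7, a nuclear exporter of maturing red cells, came closest (1.01 and 0.97), followed by Tent5c (0.94 and 0.94). Over all genes tested in both, the medians were 0.02 and −0.04. In an alternative, cells of at least 5000 UMIs (2683 control and 4926 H2CKO cells) were thinned to 5000 UMIs and shallower cells left out. There 26 genes were past 2-fold in both libraries, 18 of the 24 among them.

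Globin UMIs were also found outside the globin-rich cells, and apart from the erythroid-like cells their median number was of like size in cell classes of very different depth. The other cells, with under 50% globin, 500 genes or more and no more than 10% mitochondrial UMIs, numbered 7112 in the control and 7051 in H2CKO, and their median globin content was 70 and 75 UMIs. Not 1 of them was free of globin. Cardiomyocyte-like cells had a median of 85 globin UMIs (5th to 95th percentile 45 to 169) at a median depth of 24957 UMIs in the control, and 78 (42 to 135) at 17078 in H2CKO. Mesenchymal-like cells had 63 and 67, epicardial-like cells 71 and 80, and endothelial-like cells 66 and 68.5. The shallowest barcodes, under 1500 UMIs and 50% globin, had 54 and 57 at median depths of 636 and 770 UMIs. A shallow cluster left unnamed had 56 and 48 globin UMIs.

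Within some classes the count followed depth, with a Spearman correlation between globin and total UMIs of 0.748 over the 2228 control and 0.765 over the 3814 H2CKO cardiomyocyte-like cells. It was 0.0225 and 0.0501 over the unnamed cluster, −0.195 and 0.157 over the white blood cell-like cells, and 0.105 and −0.163 over the shallowest barcodes. The globin share was 0.338% and 0.448% in the median cardiomyocyte-like cell but 8.42% and 7.29% in the shallowest barcodes. The direction between libraries depended on the unit. Globin in cardiomyocyte-like cells was 4367 of 1000000 UMIs in the control (4351 to 4383) and 5835 in H2CKO (5818 to 5853), a log2 ratio of 0.42. Counted as mean globin UMIs per cell the log2 ratio was −0.08, and in cells under 10% globin, on the scale of total UMIs, 0.15. The 3 control and 17 H2CKO cardiomyocyte-like cells with 10% or more globin UMIs carried the difference between the last value and the first.

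**Figure D5:**
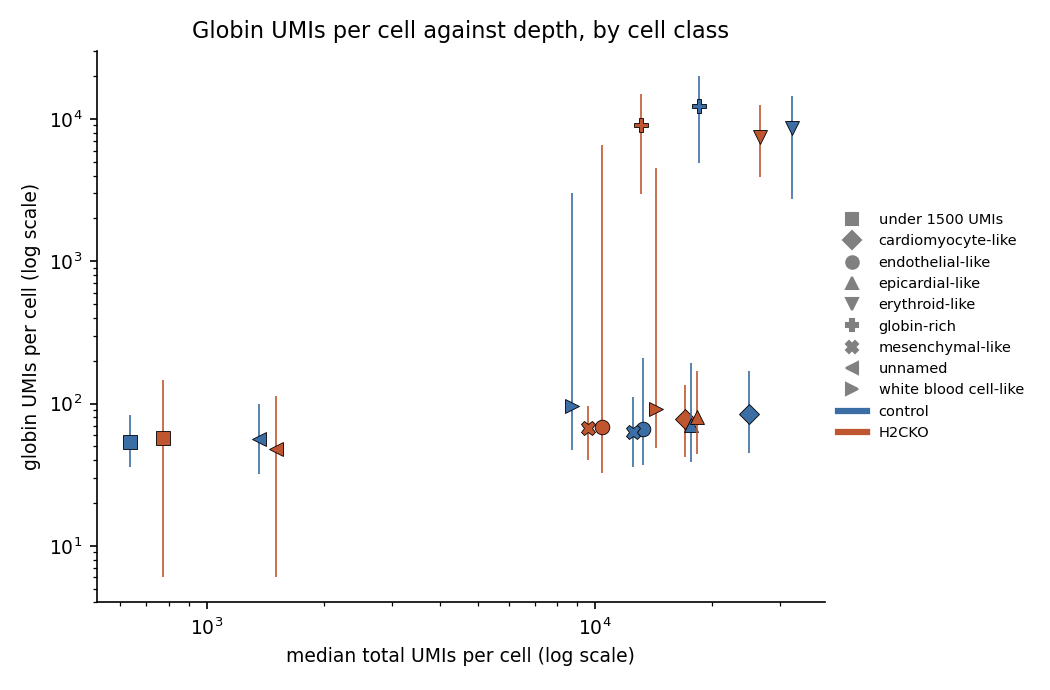
Median globin UMIs per cell, with lines from the 5th to the 95th percentile, against the median total UMIs of each cell class (log axes), in the control and H2CKO. Classes other than globin-rich and erythroid-like cells lie between 48 and 96 globin UMIs over depths from 636 to 24957 UMIs.

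The makeup of this globin RNA was close to that of the same library's globin-rich cells but not the same. Over cardiomyocyte-like cells under 10% globin, Hbb-y was 52.5% of globin UMIs in the control (52.3 to 52.7) and 58.6% in H2CKO (58.5 to 58.8), where the globin-rich cells had 52.1% and 58.0%. Hba-a2 was higher, at 6.43% (6.34 to 6.53) against 4.26% in the control and 5.87% (5.79 to 5.95) against 4.47% in H2CKO. Hba-x was lower, at 24.4% (24.2 to 24.5) against 27.3% and 19.9% (19.8 to 20.1) against 22.2%. Hbb-bt was higher as well, at 3.59% against 2.64% and 2.06% against 1.60%, and Hbb-bh1 lower, at 4.30% against 5.64% and 3.15% against 3.39%. Hba-a1 differed in direction, higher in the control, at 7.96% against 7.40%, and lower in H2CKO, at 8.53% against 9.01%. The shallowest barcodes lay nearer to the globin-rich cells for Hba-a2 (4.98% and 4.89%).

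Between these levels lay a smaller group of barcodes. From 20 to 50% globin there were 289 in the control and 512 in H2CKO, at median depths of 28249 and 23733 UMIs. Scrublet scored 278 and 463 of them and marked 172 and 154, by a different rule in each library. A pair of clusters of other cells were led by erythroid genes and are called erythroid-like: they held 313 control and 463 H2CKO cells with a median of 8576 and 7460 globin UMIs, 26.8% and 29.6% of the UMIs of the median cell, and Scrublet marked 186 and 151. In the 282 and 486 barcodes of 20 to 50% globin within the mitochondrial limit the median Hbb-y share of β-like UMIs was 86.1% and 90.3%. The cardiomyocyte markers summed to a mean of 478 and 534 UMIs per cell in these barcodes. In white blood cell-like cells the 95th percentile of globin UMIs was 3039 in the control and 4545 in H2CKO, where the medians were 96 and 92, and 56 of 129 and 32 of 131 cells had over 10% globin. In endothelial-like cells the 95th percentile was 208 and 6603.

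A few barcodes outside the globin-rich cells had mostly adult β-like RNA. They were singled out after their values had been seen. Of 9168 H2CKO barcodes with at least 50 β-like UMIs, 15 had more Hbb-bt plus Hbb-bs than embryonic β-like UMIs, and of 5605 control barcodes 1 did, a barcode of 673 UMIs. The H2CKO barcode with most globin held 735 Hbb-bt, 1980 Hbb-bs, 51 Hbb-y and 45 Hbb-bh1 UMIs, with 12 Hba-x, 550 Hba-a1 and 318 Hba-a2, in 14393 UMIs. Over the 15, adult genes made up 58.1% to 97.7% of β-like UMIs (median 91.0%) and globin 1.10% to 32.0% of all UMIs. Their Hbb-y counts ran from 5 to 68 with a median of 49, where cardiomyocyte-like cells of the library had a median of 46.

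Several values that the choice of these 15 barcodes did not use also differed from the globin-rich cells. Hba-x was below 50% of α-like UMIs in each, with a median of 15.2%, against 62.6% in globin-rich H2CKO cells. Bcl11a had 31 UMIs in 12 of the 15 barcodes, or 140.4 CPM (95.4 to 199.3), against 1.85 CPM in the globin-rich cells (1.324 to 2.503). Sox6 had 10 UMIs, or 45.3 CPM (21.7 to 83.3), against 2.39, and Car1, a carbonic anhydrase of adult red cells, 8 UMIs against none. The other genes of the definitive list had few UMIs in the 15: Myb 1, Lin28b 1 (4.53 CPM, 0.115 to 25.2, against 2.25) and Kit 2, both in 1 barcode. Klf1 stood at 380.4 and 474 CPM and Alas2 at 118 and 1672 CPM. Ptprc, the pan-leukocyte antigen CD45, and Csf1r had no UMI in the 15, each with a Poisson interval reaching 16.7 CPM. The list of white blood cell markers has 12 genes, and the others are not given here for the 15. Of the 15 barcodes, 13 fell in the white blood cell-like cluster, 1 in an erythroid-like cluster and 1 had too few genes to be clustered. Scrublet marked none, and 8 were in the authors' embedding. Hbb-bs exceeded Hbb-bt in all 15, with Hbb-bt between 0.357% and 39.8% of the pair. Hbb-bs was 7.97% of the globin UMIs of the H2CKO white blood cell-like cells and 0.547% in the control. The 13 barcodes held 6701 of the 7909 Hbb-bs UMIs of that class, whose median cell had 2, and without them the share was 1.41%.

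By a fixed rule, the non-globin genes whose level over 16 points (8 cell classes in 2 libraries) was most like that of the summed globins included Alas2 (Pearson correlation 0.994), Hsd3b6 (0.983), Pdzk1ip1 (0.982) and Trim10 (0.975). The points share libraries and free RNA, and the globin-rich and erythroid-like points lie far above the rest. Alas2 was a marker used to name the erythroid-like clusters, and Hsd3b6, Pdzk1ip1 and Trim10 were among the genes that led them. Their likeness to the globins is therefore not independent of how the classes were made.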

How the data were processed

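For each library the authors' deposited file holds whole-number UMI counts by gene and barcode (10x Genomics 3′ assay) and a second deposited table holds embedding scores (UMAP coordinates), used here only for which barcodes they kept. Per the submitters' processing notes, Cell Ranger 5.0.1 and Seurat 4 were used with GRCm38.p6; settings are not given in the sources used here. Gene identifiers were matched to symbols for 22285 of 22401 features. Everything else was computed from the deposited counts with Python 3.11.15. Globin-rich cells had at least 50% globin and at most 10% mitochondrial UMIs. Doublets were called with Scrublet (scanpy 1.11.5) and kept, except in an alternative. The other cells were clustered without globin genes (Leiden, leidenalg 0.10.2) and named from marker lists with the ending "-like". CPM of non-globin genes are per 1000000 non-globin UMIs; ratios are log2 of CPM plus 5, and a gene is called past 2-fold where the higher group has at least 20 CPM and 20 UMIs. The ratio was tested on simulated data. Medians carry exact order-statistic intervals, shares Clopper-Pearson intervals and levels Poisson intervals, all at 95%. Limits for a count of 0 use 3 counts. Depth ran from 500 UMIs per barcode upwards. Named genes were the 7 globins, listed genes past 2-fold or at 100 CPM or more (at most 6 a list), the 6 highest and 6 lowest of each comparison, and the 5 most alike; genes named beside these were chosen after their values were seen. Alternatives changed the cell filters, depth, pseudocount, expression filter, scaling, bins and clusters. The members and lists were chosen with earlier results of these data known. Some genes that the rule names are not reported here.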

Additional observations from a re-analysis of the deposited data

Results flagged for a closer look

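The Hbb-y share of β-like UMIs was set against the number of genes detected in each library, and the point values had opposite signs. The bin with the fewest genes exceeded the bin with the most by 3.21 percentage points in the control (median 87.3% in 112 cells against 84.1% in 52 cells). In H2CKO the same difference was −0.0674 percentage points, with an interval of −0.559 to 0.500, so its sign is not settled and a difference in sign is not shown. With genes counted after thinning, the control value was 0.401 (−1.04 to 1.53). The end bins cover different ranges of genes in the 2 libraries, and the difference between the libraries was not tested.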

How the results depend on the processing

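The difference in the Hbb-y share between libraries stayed within the interval of its main value under all 7 alternatives that gave a value. That in Hba-x did so under 6 of 7 and was −7.87 percentage points from summed UMIs. The control difference between gene bins was 1.57 percentage points with cells from 30% globin, 2.32 without Scrublet doublets, 0.401 (−1.04 to 1.53) with genes counted after thinning and 1.48 in 5 groups of equal size. The H2CKO difference stayed within its interval under all 8, on either side of 0. Genes past 2-fold between the libraries numbered 394, but 602 with a pseudocount of 1 CPM, 94 with a filter of 100 CPM and 183 (30 higher, 153 lower) when centred on the median gene. Along the Hbb-y share there were 24, but 44 with a pseudocount of 1 CPM, 4 with the filter of 100 CPM and 68 between the ends of 10 groups. The log2 ratio of globin in cardiomyocyte-like cells was 0.42; it was −0.0838 as UMIs per cell, 0.15 under 10% globin, 0.53 without doublets, 0.35 in embedded barcodes, 0.57 over all cells under 50% globin and 0.38 at clustering resolution 0.5. Where no cause is named above, the cause was not tested. Only 3 control and 64 H2CKO cells reached 80% globin and no globin-rich cell was embedded, so those alternatives gave no value; nor did the H2CKO bins after thinning. No paired analysis was possible because each genotype has 1 library.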
